A study of Mus musculus with 52 samples.

Results

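The 7 genes described here, Foxp3, Ikzf2, Il2ra, Tnfrsf4, Tnfrsf9, Tnfrsf18 and Ccr8, are used as markers of regulatory T cells. They were taken by symbol from 47729 gene identifiers measured by poly(A)-selected RNA sequencing. Each symbol matched 1 identifier, and all 7 passed the filter on low counts that left 17899 genes for testing. The samples were 52 mammary tumours of Balb/C mice, each started with 100000 cells of 4T1, a transplantable breast cancer line of that strain, in the fat pad. The tumours came from old mice, over 12 months of age, given anti-CTLA4 (clone 9D9, 8 libraries), anti-PDL1 (clone 10F.9G2, 8 libraries) or the isotype control antibody (clone LTF-2, 7 libraries), and young mice, 8 to 10 weeks by their labels and up to 12 by the growth protocol, given anti-CTLA4 (12 libraries), anti-PDL1 (10 libraries) or isotype (7 libraries). Every mouse received 3 intraperitoneal doses of 200 µg on days 7, 10 and 13, so the isotype groups are antibody-injected controls and not untreated ones. Libraries came from whole tumours of at most about 150 mm3, a mixture of tumour, stromal and immune cells, and in such bulk samples fewer cells of a type and less RNA per cell cannot be told apart.

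Regulatory T cells are CD4+ T cells that restrain other T cells and build up in many tumours. Foxp3 is the transcription factor that fixes their identity, Ikzf2 encodes Helios, a transcription factor of the Ikaros family found in many of them, and Il2ra encodes CD25, the alpha chain of the interleukin-2 receptor. Tnfrsf4 (OX40), Tnfrsf9 (4-1BB) and Tnfrsf18 (GITR) are costimulatory receptors of the TNF receptor superfamily, and Ccr8 is a chemokine receptor found on regulatory T cells within tumours. Most of the 7 are not restricted to these cells: activated conventional T cells use Il2ra and the 3 TNF receptors, and myeloid cells and others can express Tnfrsf9. Cd3e, a subunit of the T cell receptor complex, and Cd8a, a coreceptor of cytotoxic T cells, served as denominators.

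Libraries held between 9549847 and 53778370 counts (median 20665734). The labels number libraries as biological replicates without naming animals, so every p-value is set against the spread among libraries, which may be technical in part. Sequencing ran in 3 batches spread unevenly over the groups: the old isotype libraries share no batch with the young isotype ones, nor the old anti-PDL1 with the young anti-PDL1 libraries, and for these pairs the batch term rests on the other groups. The 8 genes of the tumour epithelium (Epcam, Cdh1, keratins and claudins) summed to at least 679 CPM, the counts scaled to depth, in every library. In 4 libraries the TMM scaling factor was under 0.8, namely old isotype replicate 3 (0.71), young anti-CTLA4 replicate 8 (0.735), young isotype replicate 1 (0.789) and young isotype replicate 6 (0.618). Libraries also differed in a length trend, the slope of their log2 CPM deviations on log2 gene length, which was lowest in young isotype replicate 6 (-0.44) and young anti-CTLA4 replicate 8 (-0.41).

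Per unit of gene length, Tnfrsf9 was the highest with a median of 26.5 TPM, a measure scaled to transcript length, over the 52 libraries. Tnfrsf4 followed with 10.6 TPM and Tnfrsf18 with 9.59 TPM. Il2ra had a median of 2.13 TPM, Foxp3 of 1.04 TPM, Ccr8 of 0.866 TPM and Ikzf2 of 0.788 TPM. In reads, Ccr8 was the thinnest, with a median of 18.5 counts, and Foxp3 had a median of 70 counts and a lowest value of 7. Ccr8 had 0 counts in old anti-PDL1 replicate 3, which allows up to 0.163 CPM at that depth, for counting error only.

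The lineage factor Foxp3 had 1.43 CPM in the lowest, 3.94 CPM in the median and 10.3 CPM in the highest old anti-CTLA4 library. The same 3 values were 0.254, 2.5 and 7.17 CPM in old anti-PDL1 libraries and 0.413, 1.77 and 5.35 CPM in old isotype libraries. In young mice they were 3, 6.51 and 20.2 CPM with anti-CTLA4, 1.55, 3.94 and 8.13 CPM with anti-PDL1, and 0.691, 2.59 and 5.66 CPM with isotype. The order of medians put young anti-CTLA4 tumours highest and old isotype tumours lowest, and every pair of groups overlapped. No 2 groups next to each other in that order had means further apart than the larger of their standard deviations, for Foxp3 or for any other gene of the 7 with 1 exception. That exception was Ccr8 in young anti-CTLA4 tumours, at 1.8 ± 0.7 CPM (SD, n = 12), over young anti-PDL1 tumours, at 1.07 ± 0.386 CPM (SD, n = 10). Young anti-CTLA4 tumours held the highest median for 6 of the 7 genes. For Ikzf2 the young isotype median was highest, at 8.46 CPM against 6.83 CPM in young anti-CTLA4 libraries.

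**Figure D1:**
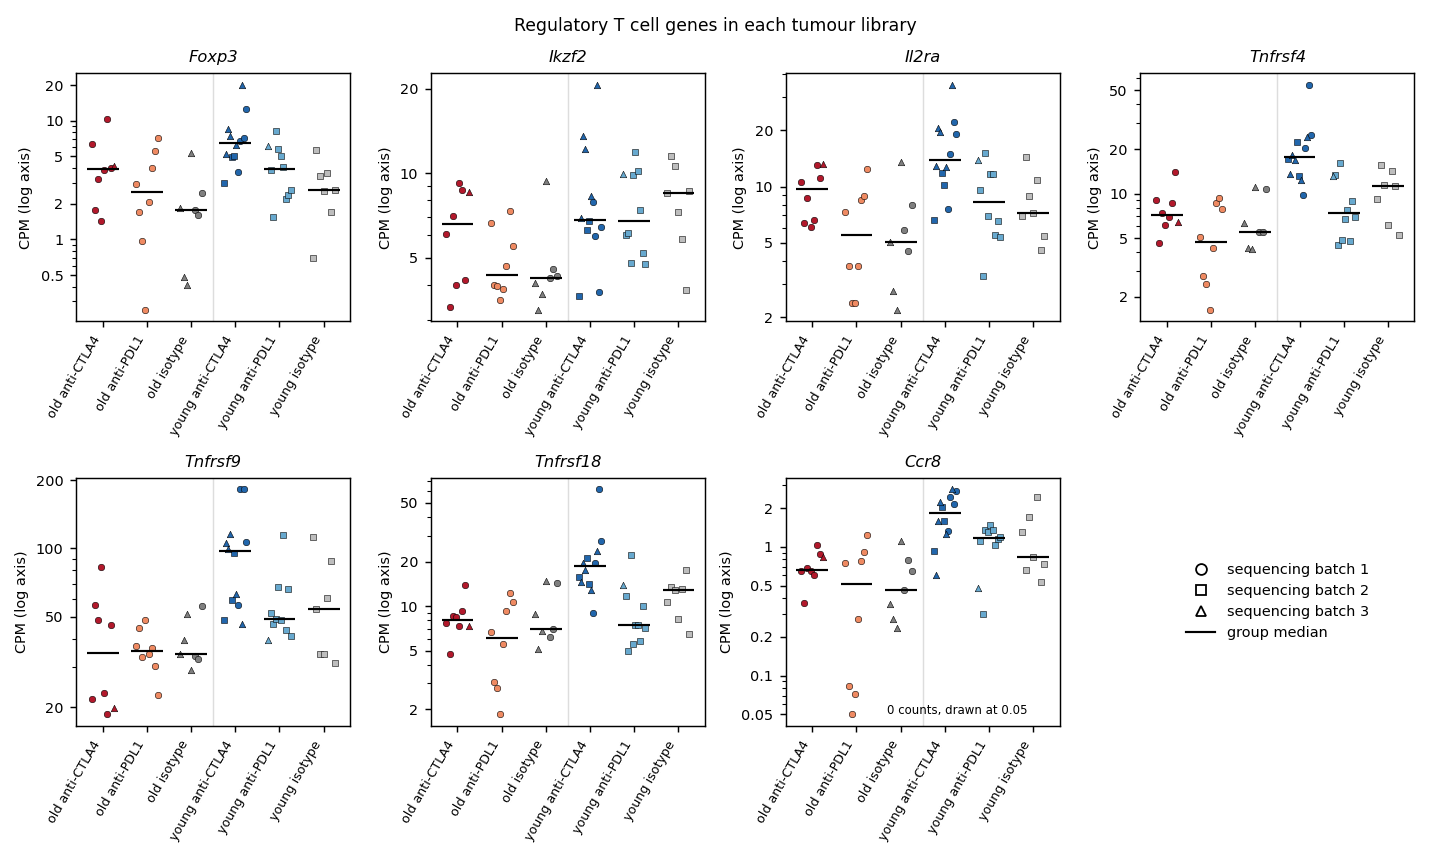
CPM of the 7 genes in each of the 52 libraries (log axes), by group along the horizontal axis, with 1 point per library, its shape giving the sequencing batch, and a bar at the group median. Tnfrsf4, Tnfrsf9, Tnfrsf18 and Ccr8 sit lower in the 8 old anti-CTLA4 than in most of the 12 young anti-CTLA4 libraries; the Ccr8 library with 0 counts is drawn at 0.05.

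Tumours of old mice given anti-CTLA4 had lower levels of 4 of the 7 genes than tumours of young mice given anti-CTLA4, namely the costimulatory receptors Tnfrsf4, Tnfrsf9 and Tnfrsf18 and the chemokine receptor Ccr8. Tnfrsf4 was 3.1-fold lower, Tnfrsf9 and Tnfrsf18 3.04-fold each and Ccr8 2.67-fold. Of all tested genes 30.6% passed in this comparison, 15.9% lower and 14.8% higher. The median log2 fold change of the 7 genes was -1.42, against -0.06 over all 17899 genes.

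Tnfrsf4, whose product OX40 binds OX40 ligand and costimulates T cells, had 4.6 CPM in the lowest, 7.16 in the median and 13.9 in the highest old anti-CTLA4 library, against 9.8, 17.6 and 54.6 CPM in young anti-CTLA4 libraries. All 8 old libraries lay below the young median, with some overlap between the groups. The log2 fold change, old over young, was -1.63 ± 0.34 (SE; edgeR quasi-likelihood test, adjusted p = 0.000269). Tnfrsf18, encoding GITR, has its gene next to that of Tnfrsf4 and had 4.75, 8.03 and 13.8 CPM in old against 8.96, 18.6 and 62.3 CPM in young libraries. Again 8 of 8 old libraries were under the young median, and the change was -1.60 ± 0.34 (edgeR, adjusted p = 0.000446). Young anti-CTLA4 replicate 8 held the highest value of both genes.

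Tnfrsf9, encoding 4-1BB, had 18.6, 34.6 and 83.1 CPM in old anti-CTLA4 libraries, against 46.3, 97.4 and 183 CPM in young ones. Old libraries were spread widely but 8 of 8 were below the young median, with a log2 fold change of -1.60 ± 0.30 (edgeR, adjusted p = 0.000106). Ccr8 had 0.366, 0.665 and 1.04 CPM in old libraries against 0.604, 1.81 and 2.82 CPM in young ones. It was below the young median in 8 of 8 old libraries and changed by -1.42 ± 0.44 (edgeR, adjusted p = 0.0128). For this gene the call rests on few reads.

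The 3 genes nearest to the definition of the lineage did not pass. Il2ra had 6.08, 9.62 and 13.2 CPM in old against 6.65, 13.9 and 35.2 CPM in young anti-CTLA4 libraries. Its 8 old libraries all lay under the young median, and its log2 fold change was -0.83 ± 0.34 (edgeR, adjusted p = 0.0594). It passed with DESeq2 (adjusted p = 0.0417) and in a fit of only these 2 groups (edgeR, adjusted p = 0.031). Foxp3 had a log2 fold change of -0.87 ± 0.49 (edgeR, adjusted p = 0.172) with 7 of 8 old libraries below the young median, and its approximate 95% interval ran from -1.82 to 0.09. Ikzf2, with 3.34, 6.58 and 9.22 CPM in old against 3.65, 6.83 and 20.7 CPM in young libraries, had -0.21 ± 0.27 (edgeR, adjusted p = 0.58) and 4 of 8 old libraries on each side of the young median.

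Within sequencing batch 1, with 7 old and 4 young anti-CTLA4 libraries, the log2 fold change was -1.74 ± 0.44 for Tnfrsf4 (edgeR, adjusted p = 0.00581), -1.63 ± 0.35 for Tnfrsf9 (adjusted p = 0.00199), -1.78 ± 0.47 for Tnfrsf18 (adjusted p = 0.00773) and -1.59 ± 0.60 for Ccr8 (adjusted p = 0.0521). Ccr8 thus missed the threshold there. Gene length moved with these results. The length trend had a median of 0.11 in old and of -0.001 in young anti-CTLA4 libraries. Tnfrsf4, Tnfrsf18 and Ccr8 are short, at 0.412, 0.477 and 0.481 of the median gene's length, and Tnfrsf9 had 0.791 of it. With the trend as a covariate the differences were -0.94 ± 0.31 for Tnfrsf4 (edgeR, adjusted p = 0.0174), -0.83 ± 0.31 for Tnfrsf18 (adjusted p = 0.0324), -1.28 ± 0.30 for Tnfrsf9 (adjusted p = 0.00112) and -1.54 ± 0.49 for Ccr8 (adjusted p = 0.0134). The 4 calls held, and the values of Tnfrsf4 and Tnfrsf18 shrank by over 1.5 times. Under the same covariate Ikzf2, the longest of the 7 at 3.86 times the median length, also passed, at -0.64 ± 0.25 (edgeR, adjusted p = 0.0415).

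Markers of T cells moved in the same direction. Both denominators were lower in old than in young anti-CTLA4 tumours, with log2 fold changes of -1.78 ± 0.57 for Cd3e (edgeR, adjusted p = 0.0153) and -1.83 ± 0.62 for Cd8a (adjusted p = 0.0204). Of 12 T cell genes, Cd3e and Cd8a among them, 9 were lower. Their summed level had 56.1, 135 and 312 CPM in the lowest, median and highest old library, against 115, 315 and 1311 CPM in young ones. Of 6 natural killer cell genes tested 4 were lower, of 8 macrophage genes 2 and of 6 genes of mature dendritic cells 2. These counts stand beside 15.9% of all tested genes lower and 14.8% higher in this comparison. None of 10 B cell genes passed, with log2 fold changes of median -1.33 in the fit with batch. Their summed level had 13.2, 91.2 and 510 CPM in old libraries, against 14.7, 42.3 and 2040 CPM in young ones, so its median went the other way. With the B cell level as a covariate Foxp3 (edgeR, adjusted p = 0.0256) and Il2ra (adjusted p = 0.0148) passed too, while the 4 genes that had passed lay between -1.74 (Tnfrsf9) and -1.36 (Ccr8). Of 8 epithelial genes 5 were higher in old tumours. The part of the natural killer, macrophage, dendritic and epithelial genes in the differences of the 7 genes was not tested.

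Between old and young isotype tumours all 7 values were below 0 and 1 gene passed, where 4.04% of all genes were lower and 4.36% higher. That gene was Ikzf2, with 3.25, 4.23 and 9.34 CPM in old isotype libraries, against 3.82, 8.46 and 11.5 CPM in young isotype libraries. Old libraries were below the young median in 6 of 7, and the log2 fold change was -1.30 ± 0.41 (edgeR, adjusted p = 0.0399). The call was lost with no batch term (-0.74, adjusted p = 0.0797), with the B cell level as a covariate (-1.11 ± 0.39, adjusted p = 0.0685) and with no filter on low counts (-1.23 ± 0.42, adjusted p = 0.0974). It was also lost without any 1 of old isotype replicates 1, 2 and 3 or young isotype replicates 2 and 3, where the value stayed between -1.22 and -1.16 and adjusted p reached 0.0958. Foxp3 had -1.41 ± 0.74 (edgeR, adjusted p = 0.232), Il2ra -1.32 ± 0.53 (adjusted p = 0.109) and Tnfrsf4 -1.07 ± 0.49 (adjusted p = 0.16). Il2ra passed without old isotype replicate 4 (edgeR, adjusted p = 0.0348). None of the 12 T cell genes passed here (median -1.84), nor any of the 10 B cell genes (median -3.30), and these fitted values rest on the batch term. The summed T cell level had a median of 95.2 CPM in old and 93.1 CPM in young isotype libraries. For the B cell genes the summed medians went the other way from the fit, at 73 CPM in old and 18.8 CPM in young isotype libraries. As a ratio to Cd3e the log2 difference of Ikzf2 was 0.59 ± 0.79 (limma, adjusted p = 0.495), and to Cd8a 0.58 ± 0.95 (limma, adjusted p = 0.586). The medians over all genes were 1.85 and 1.83 for these ratios, which also rest on the batch term. Beyond these ratios, the part of T cell markers in the Ikzf2 value was not tested. Age and batch cannot be told apart from these 2 groups alone.

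Under anti-PDL1 none of the 7 genes passed between old and young tumours, where 1.97% of all genes were lower and 3.08% higher. An unadjusted p under 0.05 was found for 4 of the 7, and for 21.1% of all genes (edgeR). Tnfrsf9 had 22.7, 35.3 and 48.5 CPM in old anti-PDL1 libraries, against 39.4, 48.8 and 115 CPM in young anti-PDL1 libraries. All 8 old libraries were below the young median, at a log2 fold change of -1.34 ± 0.46 (edgeR, adjusted p = 0.0766). It passed with DESeq2 (adjusted p = 0.0307), with the B cell level as a covariate, and without young anti-PDL1 replicate 1 (edgeR, adjusted p = 0.0371). Tnfrsf4 had -1.35 ± 0.47 (edgeR, adjusted p = 0.0793) and passed without old anti-PDL1 replicate 7 (adjusted p = 0.0441), and Ikzf2, at -0.75 ± 0.41 (adjusted p = 0.281), passed with the length trend as a covariate (adjusted p = 0.045). None of the 12 T cell genes passed (median -1.55, a value that rests on the batch term). Their summed level had a median of 107 CPM in old and 96.9 CPM in young anti-PDL1 libraries. Over the 3 age comparisons all 21 values of the 7 genes were below 0. So were all values of the 12 T cell genes and of the 10 B cell genes. The median over all genes was from -0.09 to -0.06 in the 3 comparisons. These comparisons share no library, but they share the fitted batch term, and several of the 7 genes ran together across libraries.

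**Figure D2:**
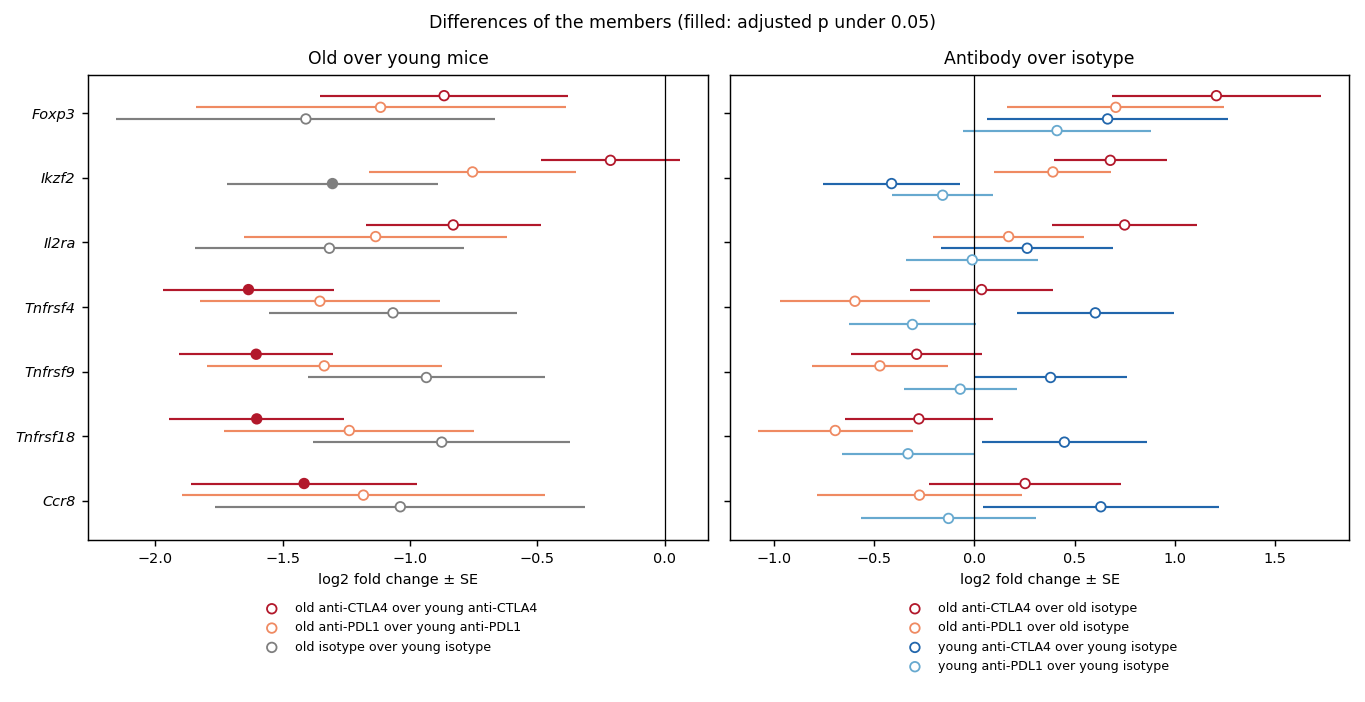
Log2 fold changes with their SE for the 7 genes, old over young mice within each antibody (left) and antibody over isotype within each age (right), where filled points have an adjusted p under 0.05 in edgeR's quasi-likelihood test. All 21 age values lie below 0 and 5 are filled, 4 of them under anti-CTLA4, and none of the antibody values is filled.

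Other genes of regulatory T cells and of the ligands and signalling partners of the 7 were read from 2 further lists. Of 20 other regulatory T cell genes, 9 were lower and 2 higher in old than in young anti-CTLA4 tumours, with a median of -0.51. Among all tested genes 15.9% were lower and 14.8% higher there. Those lower included Il10, an inhibitory cytokine (-2.38 ± 0.52, edgeR, adjusted p = 0.000592), Tigit, an inhibitory receptor (-1.54 ± 0.33, adjusted p = 0.000467), Icos, a costimulatory receptor (-1.35 ± 0.44, adjusted p = 0.0167), and Batf, a transcription factor of activated T cells (-1.48 ± 0.30, adjusted p = 0.000258). Izumo1r, the gene of folate receptor delta, was also lower (-2.16 ± 0.67, adjusted p = 0.0118), as were Ebi3, Klrg1, Il1rl1 and Entpd1. Nrp1 (0.93 ± 0.24, adjusted p = 0.00243) and Nt5e (0.57 ± 0.20, adjusted p = 0.0232), which many non-immune cells also express, were higher. For the genes that were lower, too, bulk libraries do not show which cells gave the reads.

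Ligands of Ccr8 differed the most of the genes tested in these lists under anti-CTLA4. The log2 fold change, old over young, was -2.79 ± 0.37 for Ccl1 (edgeR, adjusted p = 8.03e-07) and -2.90 ± 0.45 for Ccl8, a Ccr8 ligand in mice (adjusted p = 8.64e-06). Under anti-PDL1 it was -2.38 ± 0.52 for Ccl1 (edgeR, adjusted p = 0.00819) and -3.08 ± 0.66 for Ccl8 (adjusted p = 0.0072). With isotype it was -1.85 ± 0.53 for Ccl1 (adjusted p = 0.0235), and Ccl8, at -1.66 ± 0.67, did not pass (adjusted p = 0.113). The shared chains of the interleukin-2 receptor, Il2rb (-1.29 ± 0.39, adjusted p = 0.0104) and Il2rg (-1.26 ± 0.36, adjusted p = 0.00662), were lower under anti-CTLA4, as were the TNF receptor adaptors Traf1 (-0.32 ± 0.10, adjusted p = 0.0114) and Traf2 (-0.27 ± 0.09, adjusted p = 0.0235). Of 12 genes in that list 11 were tested and 6 were lower under anti-CTLA4, where 15.9% of all tested genes were lower. The ligands Tnfsf4, Tnfsf9 and Tnfsf18 did not pass. Il10 and Tigit were lower in old tumours in the other 2 age comparisons as well (edgeR, adjusted p of 0.009 and 0.0323 under anti-PDL1, 0.0298 and 0.0473 with isotype). Prdm1, a transcription factor of effector lymphocytes, was lower in old isotype tumours (-1.34 ± 0.38, adjusted p = 0.0201).

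As ratios to Cd3e, the 4 genes that were lower in old anti-CTLA4 tumours did not pass, and all 7 values were above 0. Tnfrsf4 had 0.606, 1.22 and 2.07 TPM per TPM of Cd3e in the lowest, median and highest old anti-CTLA4 library, against 0.404, 1.19 and 3.28 in young anti-CTLA4 libraries. Ccr8 had 0.0579, 0.1 and 0.147 in old against 0.0297, 0.113 and 0.21 in young libraries, and Foxp3 0.09, 0.15 and 0.202 against 0.038, 0.127 and 0.142. The groups overlapped for every gene. The log2 difference of the ratio was 0.18 ± 0.45 for Tnfrsf4, 0.06 ± 0.66 for Tnfrsf9, 0.28 ± 0.44 for Tnfrsf18 and 0.36 ± 0.51 for Ccr8 (limma, adjusted p of 0.699, 0.936, 0.556 and 0.508), where positive means higher per Cd3e in old tumours. Their approximate 95% intervals reached 1.06, 1.36, 1.15 and 1.37 at the upper end and -0.69, -1.24, -0.59 and -0.65 at the lower end, so both signs lie within them.

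Only Ikzf2 passed as a ratio to Cd3e, where 73.1% of all genes passed, 72.9% higher and 0.19% lower, with a median log2 difference of 1.65 over all genes, since the common denominator, Cd3e, was lower in old tumours. Ikzf2 had 0.0648, 0.114 and 0.184 per Cd3e in old anti-CTLA4 libraries, against 0.00899, 0.0723 and 0.125 in young ones, and the log2 difference was 1.47 ± 0.53 (limma, adjusted p = 0.0148). Without young anti-CTLA4 replicate 8, the library with the lowest ratio, the difference was 1.09 (adjusted p = 0.0786), and with the length trend as a covariate 0.75 ± 0.52 (limma, adjusted p = 0.189). Within batch 1 the difference was about as large, with a wider error (1.41 ± 0.78, adjusted p = 0.162), and without the 4 libraries of low TMM factor it was 1.10 ± 0.55 (adjusted p = 0.0865). Per Cd8a, Ikzf2 also passed, at 1.61 ± 0.64 (limma, adjusted p = 0.0244), with the other 6 genes between 0.20 and 1.00 without passing, where 71.5% of all genes passed, 71.4% higher and 0.134% lower. With the length trend as a covariate the Ikzf2 value per Cd8a was 0.66 ± 0.61 (limma, adjusted p = 0.346). Without young anti-CTLA4 replicate 8 it was 1.205 (adjusted p = 0.106) and without old anti-CTLA4 replicate 2 it was 1.48 (adjusted p = 0.0506). Foxp3 per Cd8a had 0.123, 0.223 and 0.335 in old against 0.0463, 0.163 and 0.3 in young anti-CTLA4 libraries. In the other 10 comparisons no gene of the 7 passed as a ratio to either denominator, where at most 0.134% of all genes did per Cd3e and 0.0279% per Cd8a.

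**Figure D3:**
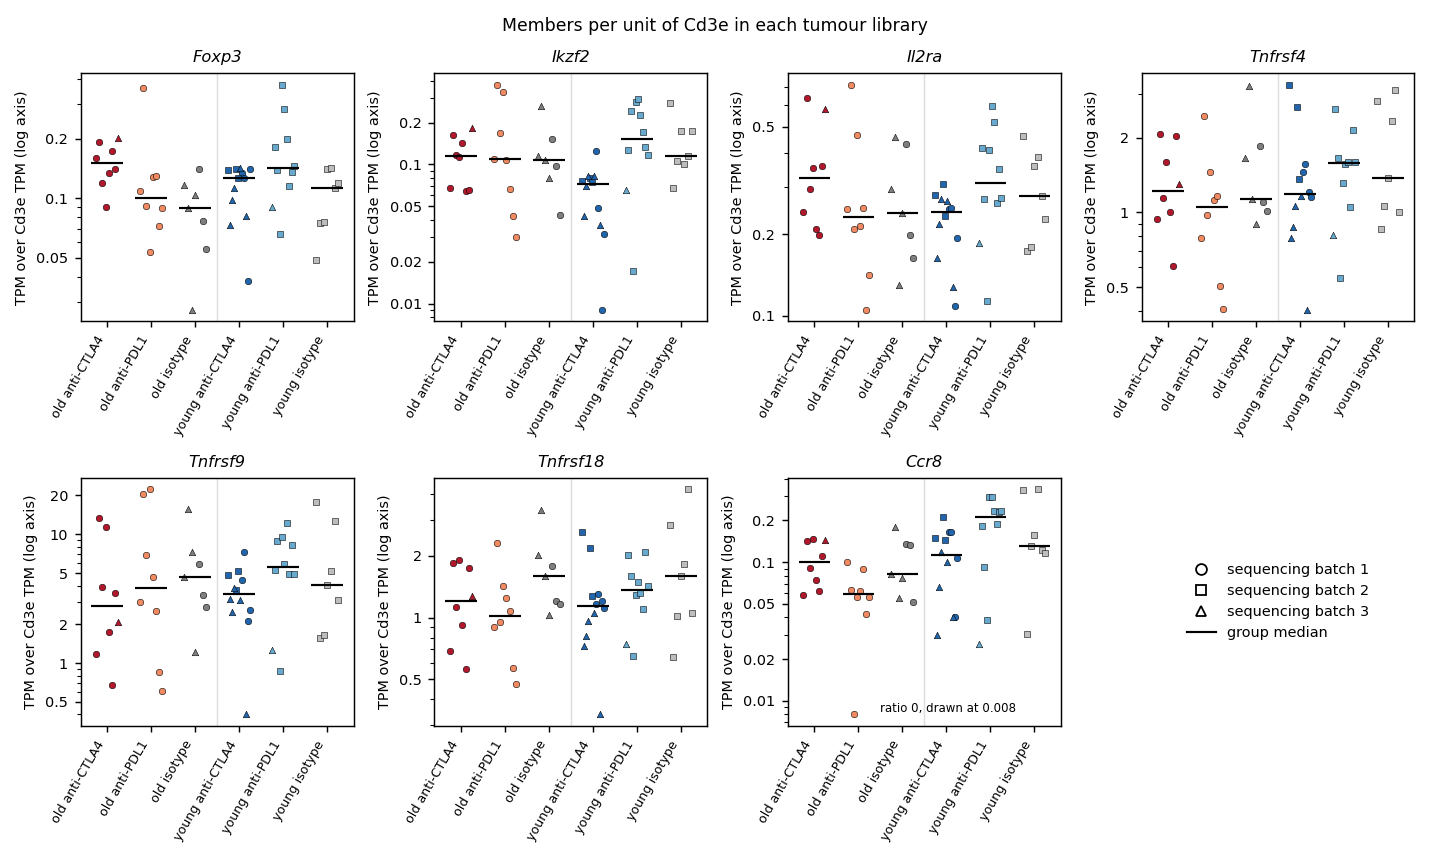
TPM of each of the 7 genes divided by the TPM of Cd3e in the same library (log axes), by group, with 1 point per library, its shape giving the sequencing batch, and a bar at the group median. The 6 groups overlap for all 7 genes, and the lowest Ikzf2 ratio, 0.00899, belongs to young anti-CTLA4 replicate 8; the Ccr8 ratio of 0 is drawn at 0.008.

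None of the 7 genes passed between an antibody and isotype within an age. In old mice given anti-CTLA4, Foxp3 (1.43 to 10.3 CPM, against 0.413 to 5.35 CPM with isotype) had a log2 fold change of 1.21 ± 0.52 (edgeR, p = 0.0255, adjusted p = 0.122). Ikzf2 had 0.68 ± 0.28 (p = 0.02, adjusted p = 0.111) and Il2ra 0.75 ± 0.36 (p = 0.0441, adjusted p = 0.157), with 8 of 8 anti-CTLA4 libraries above the isotype median for Il2ra and 7 of 8 for Foxp3. Tnfrsf4 (0.04), Tnfrsf9 (-0.29), Tnfrsf18 (-0.28) and Ccr8 (0.25) lay nearer 0 there. Within batch 1, with 7 and 3 libraries, Foxp3 had 1.21 ± 0.71 (edgeR, adjusted p = 0.83). No gene at all passed in this comparison (0% of 17899 with edgeR), while 5321 genes had an unadjusted p under 0.05 and DESeq2 called 1912. In old mice given anti-PDL1 the 7 values ran from -0.69 (Tnfrsf18) to 0.71 (Foxp3) with adjusted p of at least 0.216, and again 0% of genes passed with edgeR, with 5379 at an unadjusted p under 0.05 and 2378 called by DESeq2. None of the 7 was among the genes DESeq2 called in these 2 comparisons.

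In young mice given anti-CTLA4, Foxp3 was above the isotype median in 12 of 12 libraries, at 0.66 ± 0.60 (edgeR, adjusted p = 0.918), and Il2ra, Tnfrsf4, Tnfrsf18 and Ccr8 each in 11 of 12. Tnfrsf9 was above it in 10 of 12, but Ikzf2, at -0.41 ± 0.34, in only 3 of 12. Cd3e and Cd8a were each above it in 11 of 12 as well. As ratios to Cd3e, Foxp3 was above the isotype median in 8 of 12 libraries and the others in 1 (Ikzf2) to 5 (Ccr8) of 12. The approximate 95% interval for Foxp3 ran from -0.52 to 1.85 on the log2 scale. Of all genes 0.0726% passed in this comparison. With anti-PDL1 in young mice the 7 values lay between -0.33 (Tnfrsf18) and 0.41 (Foxp3), and 1.59% of all genes passed. The young anti-CTLA4 and isotype groups share only batch 2, with 3 and 7 libraries, where Foxp3 had 0.56 ± 0.50 (edgeR, adjusted p = 1).

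Between the 2 antibodies in young mice, Tnfrsf4 was above the anti-PDL1 median in 12 of 12 anti-CTLA4 libraries (9.8, 17.6 and 54.6 CPM, against 4.46, 7.33 and 16 CPM), with a log2 fold change of 0.91 ± 0.34 (edgeR, p = 0.0102, adjusted p = 0.657). Tnfrsf18 did the same at 0.78 ± 0.36 (p = 0.0343, adjusted p = 0.657). Both passed when the batch term was left out, at 1.24 and 1.15, where the 2 groups' uneven batches enter the difference. Within batch 2, with 3 anti-CTLA4 and 9 anti-PDL1 libraries, Tnfrsf4 had 1.07 ± 0.36 and Tnfrsf18 0.88 ± 0.37 (edgeR, adjusted p = 0.45 for both). In old mice all 7 values were above 0, from 0.18 (Tnfrsf9) to 0.63 (Tnfrsf4), and none passed (adjusted p = 1). No gene passed in either comparison, 0% of 17899 with edgeR, with 1242 genes in young and 243 in old mice at an unadjusted p under 0.05. DESeq2 called 13 genes in young and 18 in old mice, none of the 7 among them.

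Whether an antibody's effect differed with age was tested as a difference of differences, and 0 of the 7 genes passed for either antibody, as did 0% of all genes with edgeR, with 1257 genes for anti-CTLA4 and 655 for anti-PDL1 at an unadjusted p under 0.05. DESeq2 called 18 genes for anti-CTLA4 and 31 for anti-PDL1, none of the 7 among them. The value furthest from 0 was that of Ikzf2 under anti-CTLA4, 1.09 ± 0.44 (edgeR, p = 0.0163, adjusted p = 0.634), with an effect of 0.68 ± 0.28 in old and of -0.41 ± 0.34 in young mice. The age differences under anti-CTLA4 and under anti-PDL1 are thus not shown to differ from that with isotype for any of the 7 genes, and they were not tested against each other.

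Beyond group and batch, Foxp3, Il2ra, Tnfrsf4, Tnfrsf18 and Ccr8 ran together across libraries, with rho from 0.567 to 0.959 between any pair. Spearman's rho over residuals of the fit in 52 libraries was 0.959 for Tnfrsf4 with Tnfrsf18 (Pearson's r = 0.963; permutation p = 1e-05, the smallest that 100000 resamples give; adjusted p = 2.2e-05 over 49 relations), and 0.877 for Foxp3 with Il2ra (r = 0.871, permutation p = 1e-05, adjusted p = 2.2e-05). Foxp3, Il2ra, Tnfrsf4, Tnfrsf18 and Ccr8 followed Cd3e, with rho from 0.593 (Ccr8) to 0.807 (Il2ra). Without the 2 libraries furthest from the median of Tnfrsf18, r was 0.954 for Tnfrsf4 with Tnfrsf18. Without the 2 libraries furthest from the median of Il2ra, r was 0.847 for Foxp3 with Il2ra.

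Tnfrsf9 stood apart, with a rho of -0.372 with Foxp3 (r = -0.416, and -0.407 without the 2 furthest libraries; permutation p = 0.0071, adjusted p = 0.0097), of -0.0359 with Tnfrsf4, of -0.282 with Cd3e and of -0.383 with the B cell level. Across libraries with no correction for group and batch, its rho with Foxp3 was 0.124 and with Tnfrsf4 0.445. Ikzf2 had a rho of 0.602 with Foxp3 (permutation p = 1e-05, adjusted p = 2.2e-05) and of 0.0923 with Tnfrsf18 (permutation p = 0.51, adjusted p = 0.55). The length trend moved with several of them: rho was 0.555 for Ikzf2, -0.486 for Tnfrsf4, -0.505 for Tnfrsf18 and -0.37 for Tnfrsf9, and 0.212 for Foxp3. Its part in the correlations was not tested.

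The genes whose levels ran most like Foxp3, other than the 7, were found by Spearman's rho on log2 CPM over the 52 libraries among 14133 genes. They were Itgb7 (0.941), Gpr132 (0.928), Adora2a (0.922), Icos (0.919) and Cd4 (0.914). On residuals of group and batch they were Cd4 (0.898), Itgb7 (0.895), Cyfip2 (0.890), Atp2a3 (0.885) and Satb1 (0.882). Il2ra had 0.917 on the first scale and 0.877 on the second. The libraries share tumour makeup and depth, and these values are a description.

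**Figure D4:**
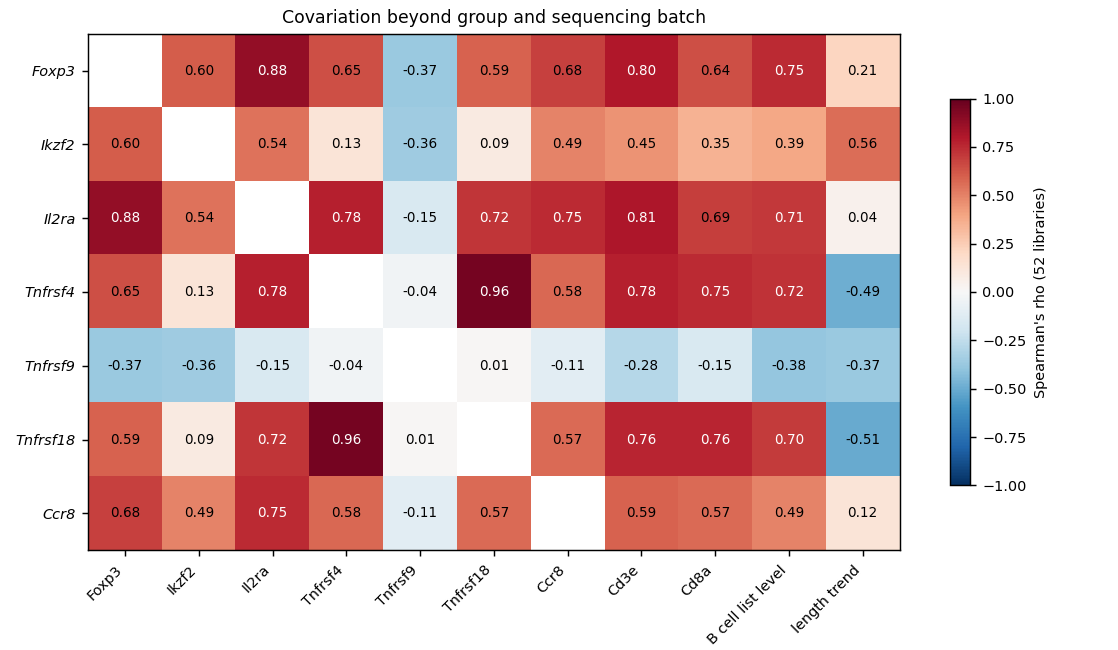
Spearman's rho over 52 libraries between the 7 genes (rows) and each other, Cd3e, Cd8a, the B cell list level and the length trend (columns), on residuals of the fit of group and sequencing batch. Tnfrsf4 with Tnfrsf18 has the highest value, 0.96, and the highest value of Tnfrsf9 with any other gene of the 7 is 0.0139, with Tnfrsf18.

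Genes were placed by GENCODE vM21 on GRCm38, all protein-coding. Tnfrsf4 (chromosome 4, 156013843 to 156016612, plus strand) and Tnfrsf18 (chromosome 4, 156026164 to 156028895, plus strand) are neighbours with 9551 bases between them, and Tnfrsf9 lies on the same chromosome (150914562 to 150946102, plus strand), overlapping Camta1 on the opposite strand. Foxp3 lies on chromosome X (7573644 to 7595245, plus strand) and overlaps Ppp1r3f, Ccdc22 and Gm36995 on the other strand and the noncoding Flicr on its own. Ikzf2 is on chromosome 1 (69531214 to 69687245, minus strand), Il2ra on chromosome 2 (11642807 to 11693193, plus strand) and Ccr8 on chromosome 9 (120092114 to 120094906, plus strand). An antisense gene overlaps Tnfrsf18, and another, Gm29114, overlaps Ikzf2. On the gene's own strand, Gm29112 and Gm28112 overlap Ikzf2, and Gm37881 overlaps Il2ra. The library kit kept strand, but whether the counting used it was not stated in the labels, so reads of such partners cannot be told apart.

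The bases upstream of the pair that moved together most, Tnfrsf4 and Tnfrsf18, are given here from RefSeq promoter windows (GRCm38.p6, both on the plus strand), each up to 250 bases before the RefSeq start and ended before the first GENCODE base of the gene. They cover chr4:156013445-156013694 and chr4:156026072-156026163, and capitals mark the core GGAAA bound by NFAT, a factor of activated T cells, or its reverse complement TTTCC.
Tnfrsf4: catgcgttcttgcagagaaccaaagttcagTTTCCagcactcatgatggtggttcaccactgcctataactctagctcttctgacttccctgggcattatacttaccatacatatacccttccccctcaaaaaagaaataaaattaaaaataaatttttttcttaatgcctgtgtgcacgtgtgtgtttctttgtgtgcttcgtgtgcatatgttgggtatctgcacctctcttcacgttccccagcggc
Tnfrsf18: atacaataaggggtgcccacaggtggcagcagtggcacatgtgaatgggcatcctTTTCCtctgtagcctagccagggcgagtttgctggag
Each holds 1 match, and the whole 250-base window of Tnfrsf18 holds 2. Such a match was in 55.6% of 32851 promoter windows of the same length, so most windows hold it. Of the 7 genes 6 had an entry, with 8 windows in all, and Ikzf2 had none. In none of the 8 windows did the letters TGTTTAC, bound by forkhead factors such as Foxp3, or TGTGGT, bound by RUNX factors, occur on either strand, against 3.17% and 14% of all windows.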

How the data were processed

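The authors deposited estimated counts per gene, all whole numbers, and TPM values for 52 libraries. Per the submitters' processing notes, Salmon, DESeq2 1.16.1 and the build mm10 were used; how transcripts were summed to genes was not stated in the labels. The deposited counts were in proportion to TPM times a length common to the libraries, within 0.0018 on the log2 scale over 2644 genes. Of 47729 identifiers 47224 matched a GENCODE vM21 symbol. All columns matched a labelled sample, and 209 pairs of libraries within groups were checked for copies (smallest chi-square per degree of freedom 17.5).

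Counts were tested with edgeR 4.0.16 (R 4.3.3): filterByExpr, TMM factors (0.618 to 1.21), 1 fit of group and sequencing batch over all libraries, quasi-likelihood F tests and Benjamini-Hochberg adjustment over 17899 genes, with a call at adjusted p under 0.05. The SE is the log2 fold change over the square root of F, and approximate intervals use it. Ratios to Cd3e and Cd8a were tested with limma 3.58.1 on differences of log2 CPM (prior count 2) over all genes, and ratios per library are of TPM. CPM values are TMM-normalized, except the summed levels of gene lists, which are scaled to total counts alone. The length trend used counts over TPM as relative length. The 11 comparisons were old over young within an antibody, antibody over isotype within an age, anti-CTLA4 over anti-PDL1 within an age, and each antibody's effect in old minus that in young mice. The 7 genes, the lists and the tests were chosen with earlier results of these data known. All 7 genes were tested in each comparison, but in several comparisons the text gives values for only some of them. The plot of log2 fold changes with their SE shows all 7 for the age comparisons and for antibody over isotype. Genes of the 2 further lists are named where they passed, with the 3 of smallest p. The procedure was tested on simulated data, where many of the smaller and some of the larger changes were missed and ratios to Cd3e had larger median errors than expression. The simulated libraries had no batch effect and no length trend, so the correction for batch was not tested by them.

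Alternatives were DESeq2 1.42.0, no filter, no batch term, size factors by relative log expression, only the groups compared, 1 batch alone, the replicate number as a block, each library left out, and log2(TPM + 0.1) or log2(TPM + 1) for ratios. Leaving out the 4 libraries with a TMM factor under 0.8, and the B cell level or length trend as a covariate, were alternatives chosen after seeing the data.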

Additional observations from a re-analysis of the deposited data

Results flagged for a closer look

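In old isotype tumours, Ikzf2 had 9.34 CPM in replicate 4, and the next of the 7 libraries had 4.56 CPM. In young anti-PDL1 tumours, Tnfrsf9 had 115 CPM in replicate 6, and the next of the 10 libraries had 67.6 CPM. Each library lay far from the others by Dixon's test at the 95% level. Of 35 sets of 1 gene in 1 group tested, chance picks about 1 in 20. Old isotype replicate 4 was also the highest of its group for Foxp3, Il2ra, Tnfrsf4, Tnfrsf18 and Ccr8.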

How the results depend on the processing

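Calls between old and young anti-CTLA4 tumours numbered 4 and ran from 3 (the replicate block, batch 1 alone) to 6 (B cell level as a covariate), and 4 to 5 with 1 library left out. Replicate numbers did not pair the libraries: 43 of 113 same-numbered pairs had deviations correlated over 0.1, with a median r of -0.0201, and 4 of 52 libraries correlated best with their own number. With the replicate block, Ccr8 had -1.12 (edgeR, adjusted p = 0.0898).

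Between old and young anti-PDL1 tumours the count was 0, and 1 with the B cell level, DESeq2 or the length trend, and 0 to 1 with 1 library left out. Between old and young isotype tumours it was 1, and 0 with the B cell level, no batch term, no filter or the replicate block, and 0 to 2 with 1 library left out. Between young anti-CTLA4 and anti-PDL1 tumours it was 0, and 2 with no batch term. For ratios to Cd3e, old over young anti-CTLA4, it was 1, then 2 with the B cell level, 3 with log2(TPM + 1), 0 with the length trend, batch 1 alone, no batch term or without the low-TMM libraries, and 0 to 1 with 1 library left out. For ratios to Cd8a it was 1, then 2 with the B cell level, 0 with the length trend, batch 1 alone, no batch term or without the low-TMM libraries, and 0 to 1 with 1 library left out. For ratios to Cd3e it became 1 in young anti-CTLA4 over anti-PDL1 (B cell level, no batch term) and over isotype (no batch term), and to Cd8a 1 over anti-PDL1 (no batch term). The cause was not tested.

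No called value changed sign. Of values that missed the threshold, these did, on the log2 scale; values per Cd3e or Cd8a are all of old over young anti-CTLA4. With no batch term, the anti-CTLA4 effect, old minus young, was -0.24 for Foxp3 and -0.29 for Il2ra, and the anti-PDL1 one -0.059 for Il2ra and 0.015 for Ccr8. Ikzf2 was 0.17 in young anti-CTLA4 over anti-PDL1 and 0.10 over isotype, Tnfrsf9 0.0047 in old anti-CTLA4 over isotype, and Il2ra 0.10 in young anti-PDL1 over isotype. Tnfrsf9 per Cd3e, old over young anti-CTLA4, was -0.042 with no batch term. With the B cell level, Foxp3 had an anti-CTLA4 effect, old minus young, of -0.026, Il2ra 0.13 in young anti-PDL1 over isotype, and Tnfrsf9 -0.20 per Cd3e and -0.063 per Cd8a. With the length trend, old anti-CTLA4 over isotype gave 0.089 for Tnfrsf9 and 0.44 for Tnfrsf18, old anti-PDL1 over isotype -0.058 for Ikzf2, 0.014 for Tnfrsf4 and 0.0077 for Tnfrsf18, and young anti-PDL1 over isotype 0.0071 for Il2ra, 0.088 for Tnfrsf4, 0.32 for Tnfrsf9 and 0.11 for Tnfrsf18. Per Cd3e, Ccr8 was -0.015, and per Cd8a Ccr8 was -0.11 and Tnfrsf9 -0.0053. In batch 1 alone, Tnfrsf9 was 0.075 in old anti-CTLA4 over isotype, Il2ra -0.0032 in old anti-PDL1 over isotype and Ikzf2 0.031 in old over young anti-CTLA4. Per Cd3e there, Tnfrsf4 was -0.11, Tnfrsf9 -0.23, Tnfrsf18 -0.064 and Ccr8 -0.084. Il2ra in young anti-PDL1 over isotype was 0.018 in batch 2 alone, 0.031 with no filter and 0.0062 with only the groups compared. Tnfrsf4 in old anti-CTLA4 over isotype was -0.049 with the replicate block. Tnfrsf9 per Cd3e was -0.047 with log2(TPM + 1) and -0.087 without the low-TMM libraries. Without those libraries, the expression of Tnfrsf9 differed by 0.40 in young anti-PDL1 over isotype.

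With 1 library left out, the anti-PDL1 effect, old minus young, ran from -0.47 to 0.10 for Ccr8, -0.0091 to 0.62 for Foxp3 and -0.043 to 0.39 for Il2ra. In young anti-PDL1 over isotype it ran from -0.25 to 0.16 for Ccr8, -0.16 to 0.18 for Il2ra and -0.25 to 0.16 for Tnfrsf9. Il2ra in old anti-PDL1 over isotype ran from -0.054 to 0.39, Tnfrsf4 in old anti-CTLA4 over isotype from -0.11 to 0.21 and Tnfrsf9 in old anti-CTLA4 over anti-PDL1 from -0.053 to 0.29. Tnfrsf9, old over young anti-CTLA4, ran from -0.22 to 0.34 per Cd3e and from -0.11 to 0.49 per Cd8a. Batch 3 alone, and a fit of only the 2 groups for old over young isotype or anti-PDL1, could not be run, since no comparison had 2 libraries a group in batch 3 and the others share no batch. Ccr8, with a median of 18.5 counts, is limited most by depth.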

Other observations

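The genes most like Tnfrsf9 on residuals of group and batch, chosen after their values were seen, were Hilpda (Spearman's rho 0.872), Arg2 (0.872), Lgals3 (0.851), Clec4n (0.847) and Fth1 (0.844) over 52 libraries, given as a description. Izumo1r had a rho of 0.926 with Tnfrsf4 and of 0.911 with Tnfrsf18 on the same scale.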
